A study of Mus musculus with 48 samples.

Results

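The Cdc2-like kinases (Clk1 to Clk4) and the Transformer 2 proteins (Tra2a and Tra2b) were listed by name as 6 splicing regulators known for nuclear-detained introns and were matched by gene identifier to mouse symbols. Of these 6 genes, 4 (Clk1, Clk3, Clk4 and Tra2b) had values, out of 23862 gene identifiers in the whole data set. Clk2 and Tra2a were not analysed here. All 4 genes were listed in each of the 48 libraries. The cells were E14TG2a, a mouse embryonic stem cell line grown in 2i plus LIF medium on gelatin, and every library came from cells kept in 1 µM flavopiridol, which inhibits the kinase Cdk9 and thereby blocks transcription elongation by RNA polymerase II. Cells were harvested in cycloheximide and separated with digitonin and NP-40 into cytosol, membrane and nucleus, and an aliquot of the permeabilised cells was kept as total RNA. Polyadenylated RNA was sequenced at 30, 60, 120 and 240 min in 3 independently passaged replicates, giving 12 libraries for each fraction. The sample titles gave the last time as 240 min and the protocol text as 180 min. Each value was the level of a gene relative to 0 min in the same fraction, so 1 stands for the level at the start, and levels cannot be compared between genes.

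Clk kinases phosphorylate serine and arginine rich (SR) proteins, the splicing factors that bind exonic enhancers, and thereby release them from nuclear speckles. Tra2 proteins have SR-like domains on either side of an RNA-binding domain and promote inclusion of exons with GAA-rich enhancers. Genes of both families are known to make polyadenylated transcripts in which particular introns stay unspliced and the RNA stays in the nucleus (detained introns), and also forms with altered exons that are degraded by nonsense-mediated decay. Transcripts with detained introns can be spliced later and exported, or degraded in the nucleus.

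The genes are known for detained introns, so the splice sites of introns that annotated transcripts keep are shown. Whether these are the detained introns was not tested. All coordinates are from the GENCODE annotation of GRCm38. Clk1 (ENSMUSG00000026034) lies on the minus strand of chr1:58410189-58424066, Clk3 (ENSMUSG00000032316) on the minus strand of chr9:57750624-57765860, Clk4 (ENSMUSG00000020385) on the plus strand of chr11:51261730-51281766 and Tra2b (ENSMUSG00000022858) on the minus strand of chr16:22244549-22266005. In the 3 Clk genes the kept introns included introns 3 and 4, which flank exon 4 of the principal transcript, within the coding sequence. Intron 6 of Clk1 and introns 7 and 8 of Clk4 were kept too. Their first 6 intron bases were GTAAGT in each case, and they are not listed below. Exon 4 was 91 bases long in Clk1, 97 in Clk3 and 91 in Clk4, none of which is a multiple of 3. It was skipped in 2 annotated nonsense-mediated decay transcripts of Clk1, 1 of Clk3 and 2 of Clk4. Intron 3 spanned chr1:58420212-58421082 in Clk1 (871 bp), chr9:57758724-57760823 in Clk3 (2100 bp) and chr11:51272023-51273077 in Clk4 (1055 bp). Intron 4 spanned chr1:58419734-58420120 in Clk1 (387 bp), chr9:57758351-57758626 in Clk3 (276 bp) and chr11:51273169-51273559 in Clk4 (391 bp). In Tra2b the kept introns were intron 5 at chr16:22249134-22250864 (1731 bp) and intron 6 at chr16:22248496-22249049 (554 bp). The 5′ splice sites are written 5′ to 3′ on the strand of the gene, with the last 3 exon bases in lower case and the first 6 intron bases in capitals.
Clk1 intron 3, 5′ splice site: gggGTATGA
Clk4 intron 3, 5′ splice site: tcgGTATGA
Clk3 intron 3, 5′ splice site: tcgGTGAGT
Clk1 intron 4, 5′ splice site: gatGTATAG
Clk4 intron 4, 5′ splice site: gatGTATAG
Clk3 intron 4, 5′ splice site: gatGTACAG
Tra2b intron 5, 5′ splice site: ttaGTAAGT
Tra2b intron 6, 5′ splice site: cagGTGAGT
The 3′ splice sites of the introns around exon 4 follow, with the last 17 intron bases in capitals and the first 3 exon bases in lower case.
Clk1 intron 3, 3′ splice site: CCACTTGACGTGTCCAGaag
Clk4 intron 3, 3′ splice site: CCCACTTGCCGTTCCAGaag
Clk3 intron 3, 3′ splice site: GGGGGCGGTGCATGCAGaga
Clk1 intron 4, 3′ splice site: TTATTCCTCTTTTTTAGatg
Clk4 intron 4, 3′ splice site: TCTCTCCCTTACTTTAGatg
Clk3 intron 4, 3′ splice site: CTTCTTCTTTCTCACAGatg
The 9 bases at the 5′ splice site of intron 4 were the same in Clk1 and Clk4. The 6 intron bases at the 5′ splice site of intron 3 were also the same in these genes, whereas Clk3 had a different set at both introns.

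**Figure D1:**
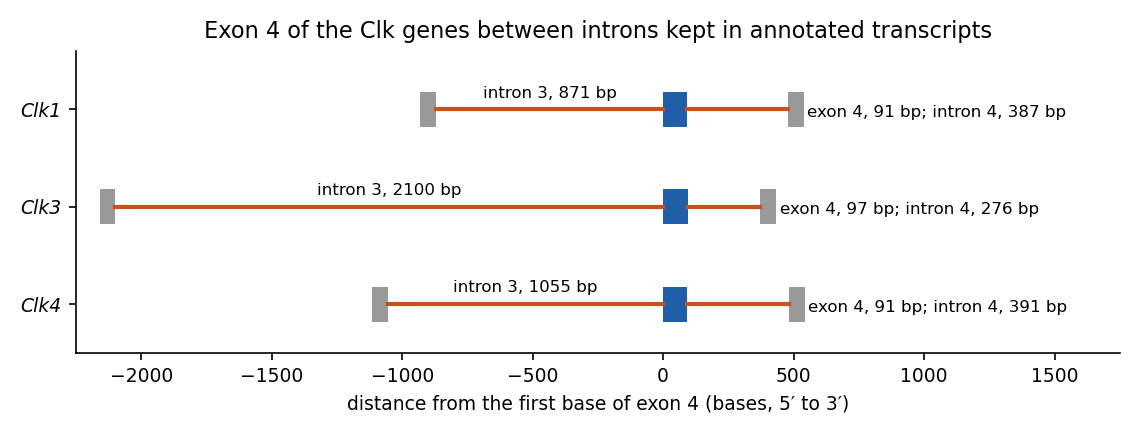
Map of exon 4 (blue) and its flanking introns (orange lines) in Clk1, Clk3 and Clk4, drawn to scale in bases from the first base of exon 4, with the ends of the neighbouring exons in grey. Exon 4 is 91, 97 and 91 bases long, and intron 3 is the longer of the flanking introns in each gene.

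The annotation held 7 retained-intron transcripts of Clk1, 4 of Clk3, 7 of Clk4 and 3 of Tra2b. Among 8539 protein-coding genes listed in all 48 libraries, 58.06% had at least 1 such transcript, 12.05% had 4 or more and 2.237% had 7 or more. The principal mRNAs of the kinases were short, at 1796 bases for Clk1, 2496 for Clk3 and 1949 for Clk4 against a median of 3030. Tra2b was longer, at 3403 bases, of which 2307 were 3′ UTR, against 197 in Clk1, 236 in Clk3, 347 in Clk4 and a median of 1074. The sequence ATTTA, searched on the mRNA strand only, occurred 1 time in the 3′ UTR of Clk1, 1 time in that of Clk3, 0 times in Clk4 and 3 times in Tra2b, and 68.03% of all 3′ UTRs held it. Because the values were summed per gene, RNA that kept an intron and spliced RNA of the same gene could not be separated, and this holds for each course below.

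The libraries listed between 15067 and 19501 genes, and the median ratio of a library lay between 0.313 and 0.972. The depth is unknown, since the files held only ratios. Of 8 stem cell markers 6 were listed in all 48 libraries (Esrrb was listed in 37 and Zfp42 in 47), and of 5 fibroblast markers 0 were listed in all (Col1a1 in 44, Thy1 in 43 and Col1a2 in 12) and 2 (Postn and Dcn) in none. The nuclear 30 min library of replicate 1 stood apart from the other nuclear libraries of that time, and the calls and ranges at 30 min are given with and without it. Each gene was divided by its own 0 min level, which was not among the values analysed here. The sources do not say whether each replicate was divided by its own 0 min library or by a mean. If a mean was used, the error of that level is not contained in the spread between replicates and p-values at a single time are too small, whereas slopes with time are not touched by a 0 min level common to all times. Libraries of a fraction with the same replicate number deviated from their group means with correlations from -0.088 to 0.273 over 72 pairs of times.

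Clk1 RNA fell to a small remainder of its starting level in every fraction by the last time. In the nucleus, Clk1 stood at 0.523, 0.889 and 0.698 in the 3 replicates at 30 min and at 0.448, 0.417 and 0.500 at 60 min. It then dropped to 0.115, 0.104 and 0.0743 at 120 min and to 0.0259, 0.0197 and 0.0248 at 240 min. In the cytosol the values were 0.693, 0.678 and 0.741 at 30 min and 0.577, 0.525 and 0.675 at 60 min. They continued at 0.261, 0.260 and 0.214 at 120 min and 0.0484, 0.0301 and 0.0356 at 240 min. The nuclear and cytosolic ranges overlapped at 30 min, and every nuclear value lay below every cytosolic value at 60, 120 and 240 min. Between 60 and 120 min the mean fell 4.64-fold in the nucleus and 2.42-fold in the cytosol, and between 120 and 240 min it fell 4.17-fold in the nucleus and 6.44-fold in the cytosol. Total RNA went from 0.657 to 0.837 at 30 min to 0.0372 to 0.0416 at 240 min, and membrane RNA from 0.635 to 0.734 to 0.0581 to 0.0779. The membrane values at 240 min lay above all values of the other fractions at that time.

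Clk4, the closest relative of Clk1 in the family, fell in a like order with a wider spread. In the nucleus it stood at 0.502, 1.24 and 1.01 at 30 min and at 0.558, 0.542 and 0.542 at 60 min. At 120 min it stood at 0.144, 0.0805 and 0.0924, and at 240 min at 0.0376, 0.0716 and 0.0536. The lowest of the nuclear values at 30 min was that of the library that stood apart. In the cytosol Clk4 stood at 0.762, 0.437 and 0.496 at 30 min, a level not called below 0 min (limma adjusted p = 0.090). At 60 min it stood at 0.625, 0.598 and 0.775. It declined to 0.211, 0.299 and 0.259 at 120 min and 0.110, 0.0900 and 0.0320 at 240 min. The cytosolic ranges at 30 and 60 min overlapped, so no change between these times was detectable. Nuclear and cytosolic ranges overlapped at 30 and 240 min, and the nuclear values lay below the cytosolic ones at 60 and 120 min. At 30 min the overlap came from the library that stood apart, and the other nuclear values, 1.24 and 1.01, lay above every cytosolic value. The mean fell 5.19-fold in the nucleus and 2.60-fold in the cytosol between 60 and 120 min. Total RNA went from 0.990 to 1.11 at 30 min to 0.0698 to 0.171 at 240 min. Membrane RNA went from 0.496 to 0.813 to 0.0177 to 0.107, and the spread of its 3 replicates at 240 min, relative to their level, was wider than in any Clk1 fraction.

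Clk3 differed from the other kinases in that its nuclear RNA was already about halved at 30 min while its cytosolic RNA was not reduced. In the nucleus it stood at 0.421, 0.583 and 0.558 at 30 min and at 0.342, 0.335 and 0.355 at 60 min. It was at 0.213, 0.254 and 0.234 at 120 min and at 0.0915, 0.103 and 0.0674 at 240 min. In the cytosol all 3 replicates were slightly above the start at 30 min, with 1.07, 1.07 and 1.05, and close to it at 60 min, with 1.03, 0.882 and 0.992. The cytosolic level then fell to 0.568, 0.617 and 0.671 at 120 min and 0.211, 0.226 and 0.194 at 240 min. The nuclear range lay below the cytosolic range at all 4 times, by 2.04-fold in the means at 30 min, 2.81-fold at 60 min, 2.65-fold at 120 min and 2.41-fold at 240 min. Total RNA went from 0.878 to 0.975 at 30 min to 0.164 to 0.207 at 240 min, and membrane RNA from 0.732 to 0.818 to 0.151 to 0.188. The last exons of Clk3 overlap Edc3, a decapping enhancer gene on the opposite strand, and 15.4% of the 75-base windows of the Clk3 mRNA also occur in that gene when strand is ignored. The library kit keeps strand. The study's methods state default RSEM parameters for its expression values in general, but name no settings for the flavopiridol libraries. Whether the counting used strand is thus not stated outright. Edc3 itself had a mean of 0.681 in the nucleus and 0.981 in the cytosol at 30 min, and 0.124 and 0.217 at 240 min, so both genes were lower in the nucleus and a share of Edc3 reads in Clk3 was not tested.

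Tra2b declined least of the 4 genes, and was the only one of them whose nuclear level lay above its cytosolic level at the last times. In the nucleus Tra2b stood at 1.12, 1.10 and 0.754 at 30 min and at 0.729, 0.707 and 0.872 at 60 min. The later nuclear values were 0.805, 0.842 and 0.751 at 120 min and 0.650, 0.603 and 0.556 at 240 min. The nuclear ranges at 60 and 120 min overlapped, with means of 0.769 ± 0.0900 and 0.799 ± 0.0456 (SD, n = 3). In the cytosol Tra2b stood at 0.789, 0.914 and 0.916 at 30 min and at 0.820, 0.788 and 0.876 at 60 min. It fell to 0.724, 0.673 and 0.595 at 120 min and 0.391, 0.350 and 0.333 at 240 min. Nuclear and cytosolic ranges overlapped at 30 and 60 min, and every nuclear value lay above every cytosolic value at 120 and 240 min. Total RNA went from 0.692 to 0.849 at 30 min to 0.392 to 0.432 at 240 min, and membrane RNA from 0.815 to 0.992 to 0.311 to 0.444. Of the 75-base windows of the Tra2b mRNA, 14.9% also occur in the predicted genes Gm10254, Gm11957, Gm14639 and Gm6439, so reads there could have been divided among them.

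**Figure D2:**
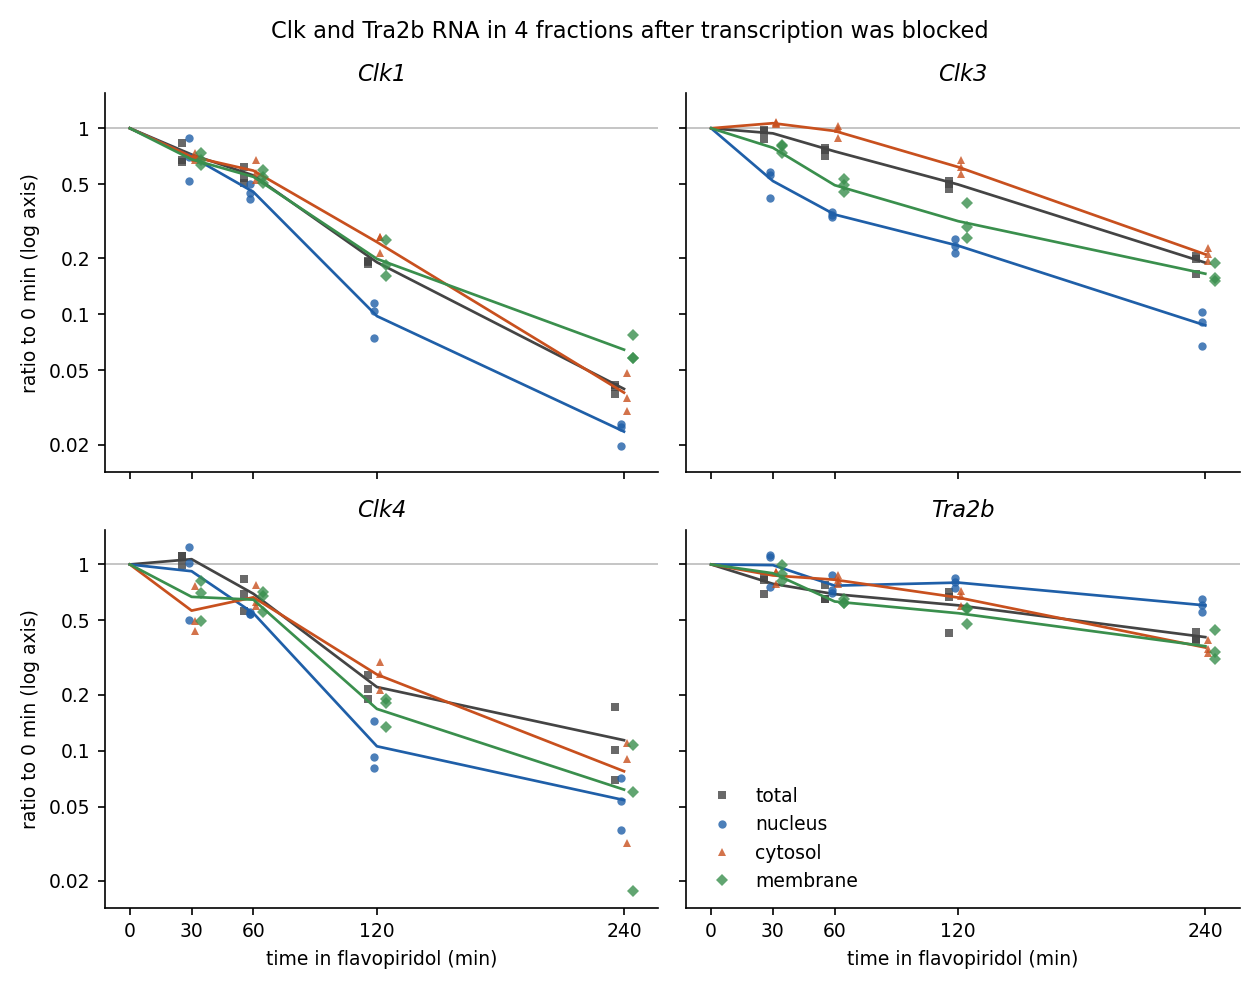
Ratio to 0 min (log axis) against time in flavopiridol (min) for Clk1, Clk3, Clk4 and Tra2b. Each point is 1 replicate library, each line joins the means of 3 replicates of a fraction, and all lines start at the level of 1 set at 0 min. Nuclear Clk3 lies below cytosolic Clk3 at all 4 times, whereas nuclear Tra2b lies above cytosolic Tra2b at 120 and 240 min.

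To ask how fast each RNA declined, the log2 ratio was fitted on time within each fraction with limma over all genes listed in the 12 libraries of that fraction, and p-values were adjusted by the Benjamini-Hochberg method. All 4 genes fell in all 4 fractions at an adjusted p under 0.05. A fall was common: 61.9% of all genes tested fell in the nucleus, 67.1% in the cytosol, 62.2% in the membrane fraction and 56.9% in total RNA, so the calls alone do not set the 4 genes apart. Their slopes did differ in size. Clk1 changed by -1.42 ± 0.10 log2 units per h (SE) in the nucleus (limma adjusted p = 1.97e-07), and 1.06% of the 13343 genes tested there had a lower slope. Its slopes were -1.25 ± 0.06 in the cytosol, -1.22 ± 0.05 in total RNA and -1.00 ± 0.07 in the membrane fraction. Clk4 followed at -1.17 ± 0.15 in the nucleus, -0.94 ± 0.12 in the cytosol, -0.95 ± 0.11 in total RNA and -1.14 ± 0.14 in the membrane fraction, with between 2.80% and 6.70% of genes lower. Clk3 declined at -0.71 ± 0.06 in the nucleus, -0.69 ± 0.03 in the cytosol, -0.66 ± 0.03 in total RNA and -0.61 ± 0.06 in the membrane fraction. These Clk3 slopes were within 2 SE of each other in the nucleus and the cytosol. The shares of genes with a lower slope leave out genes at 0 in any of the 12 libraries, since such genes were not listed. Without that filter the nuclear fit held 18041 genes.

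The slope of Tra2b was -0.17 ± 0.05 log2 units per h in the nucleus, with an adjusted p of 0.0071 by limma, and 66.0% of all genes had a lower slope. In the cytosol it was -0.38 ± 0.03, and there 38.1% of genes were lower. Total RNA and the membrane fraction gave -0.26 ± 0.05 and -0.34 ± 0.05. The median gene had slopes of -0.30 in the nucleus, -0.28 in the cytosol, -0.22 in total RNA and -0.26 in the membrane fraction. With every library centred at its median gene, the nuclear slope of Tra2b turned to 0.14 ± 0.06 with a limma adjusted p of 0.053. Scaled to the mRNAs encoded in mitochondria, it was 0.02 ± 0.12 (adjusted p = 0.91, limma). The nuclear call of Tra2b was also lost without replicate 3 and with the first 3 times only, and that in total RNA with centring or without the last time. In the membrane fraction the call of Tra2b was lost with centring (limma adjusted p = 0.065) and in the cytosol with mitochondrial scaling (0.17), whereas the falls of Clk1, Clk3 and Clk4 kept direction and call in each fraction under every alternative run.

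**Figure D3:**
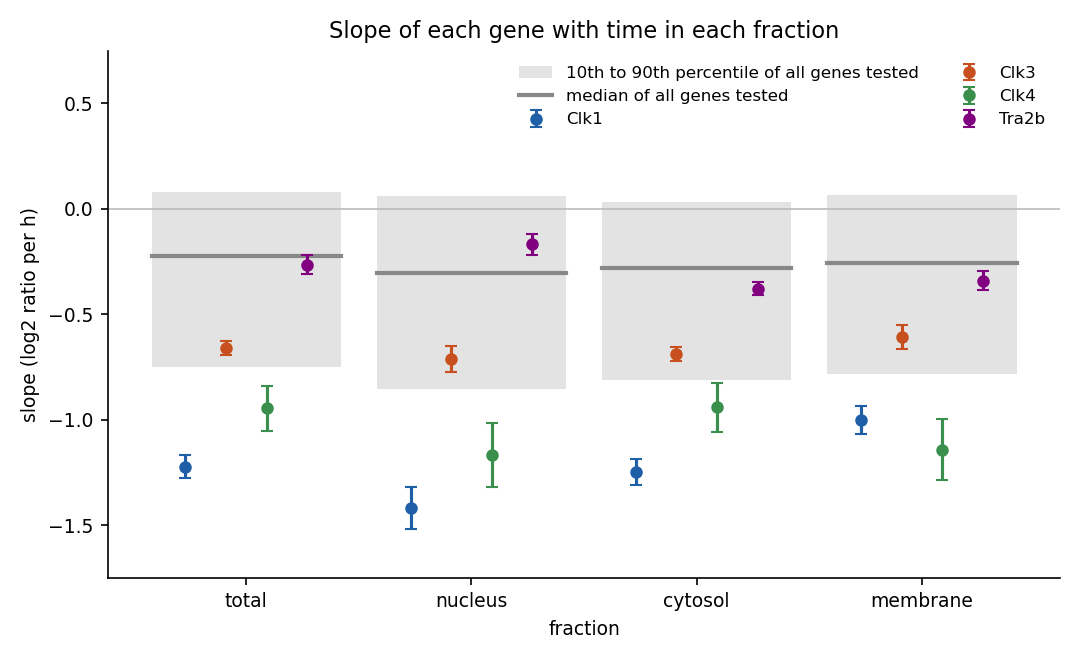
Slope of the log2 ratio on time (log2 units per h) by fraction, with 1 point per gene and bars of 1 SE from limma over 12 libraries. The grey line is the median and the grey band the 10th to 90th percentile of all genes tested. Clk1 and Clk4 lie below the band in every fraction, Clk3 within it, and Tra2b near the median.

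Against the starting level, genes were tested at each time in each fraction, which makes 16 combinations of gene and time per fraction. The level was below 0 min in 14 of 16 combinations in the nucleus, 11 in the cytosol, 13 in total RNA and 12 in the membrane fraction (limma, adjusted p under 0.05). At 30 min 2 of 4 genes were called lower in the nucleus, against 35.1% of all genes, and 1 of 4 in the cytosol, against 8.16%. The corresponding count in total RNA was 1 of 4, against 8.24%, and in the membrane fraction 1 of 4, against 7.00%. At 60 min all 4 were lower in the nucleus (58.6% of all genes) and in total RNA (59.4%), 3 in the membrane fraction (49.3%) and 2 in the cytosol (32.5%). At 120 min all 4 genes were lower in every fraction, as were 69.2% of all genes in the nucleus, 66.5% in the cytosol, 77.6% in total RNA and 66.9% in the membrane fraction. At 240 min they were again all lower, with shares of 77.4%, 75.9%, 73.1% and 74.1% in the same order. Without the library that stood apart, 1 of the 4 genes was called lower in the nucleus at 30 min, against 17.0% of all genes. This was Clk3 (limma adjusted p = 0.0095), while Clk1 lost its call (limma adjusted p = 0.23).

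The comparison of the nuclear with the cytosolic course was made in the 24 libraries of these fractions over 11232 genes. Both courses are relative to the genes of long known half-life on which the authors scaled the libraries. The difference in slope, nucleus minus cytosol, passed the test in 1 of the 4 genes, against 20.6% of all genes in either direction. This was Tra2b, with 0.21 ± 0.05 log2 units per h (adjusted p = 0.0091, limma interaction term), its nuclear RNA falling more slowly. Of all genes, 12.3% were called in the same direction. The Tra2b difference kept its sign under all 13 alternatives run, from 0.12 to 0.28. Its adjusted p (limma) was 0.074 without replicate 2 and 0.17 without replicate 3, 0.66 when scaled to mitochondrial mRNAs and 0.68 without the last time. In the same order, 8.99%, 4.84%, 0.07% and 8.29% of all genes were called in either direction, so calls were lost widely. With mitochondrial scaling the Tra2b difference was 0.24 ± 0.16. The cytosolic mitochondrial mRNAs used there lay at -0.71, 0.11, -0.83 and -0.90 log2 units at 30, 60, 120 and 240 min. For Clk1 the slope difference was -0.17 ± 0.11 (limma adjusted p = 0.30), for Clk4 -0.23 ± 0.20 (adjusted p = 0.44) and for Clk3 -0.02 ± 0.06 (adjusted p = 0.82).

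The courses of Clk1 and Clk4 were not straight lines on the log scale, and the outcome depended on the times used. Over 30, 60 and 120 min, an alternative setting, the slope difference was -0.88 ± 0.21 for Clk1 (adjusted p = 0.019, limma) and -1.27 ± 0.33 for Clk4 (adjusted p = 0.028, limma). In that window 4.84% of all genes were called in the same direction. Clk3 had -0.19 ± 0.13 (limma adjusted p = 0.43) and Tra2b 0.12 ± 0.14 over the same times. Between 30 and 120 min nuclear Clk1 and Clk4 fell more steeply than their cytosolic RNA in this fit, and the difference was not detected once the last time was included. At 30 min the mean of Clk4 was 0.565 in the cytosol and 0.920 in the nucleus, a difference that was not detected (limma adjusted p = 0.23). The cytosolic mean of Clk4 at 60 min was 0.666. The cytosolic level at 30 min thus enters the slope difference of Clk4. This window was not combined with leaving out a replicate or library.

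Between nucleus and cytosol at single times, 1 of 4 genes differed at 30 min, against 30.2% of all genes, and 1 of 4 at 60 min, against 41.8%. This was Clk3 at both times, with -1.05 ± 0.15 log2 units at 30 min (limma adjusted p = 1.15e-04) and -1.49 ± 0.15 at 60 min (limma adjusted p = 1.02e-06). At 120 min 3 of 4 genes were lower in the nucleus, against 33.4% of all genes. Clk1 stood at -1.34 ± 0.22 (limma adjusted p = 6.13e-05), Clk3 at -1.40 ± 0.15 (limma adjusted p = 7.97e-07) and Clk4 at -1.31 ± 0.40 (limma adjusted p = 0.011). At 240 min Clk1 with -0.68 ± 0.22 and Clk3 with -1.29 ± 0.15 were lower in the nucleus, as were 34.8% of all genes, and Tra2b with 0.75 ± 0.14 was higher, as were 21.6%. The adjusted p at 240 min was 0.013 for Clk1, 1.30e-06 for Clk3 and 1.28e-04 for Tra2b by limma. Clk4 no longer differed detectably at that time, with -0.38 ± 0.40. At all 4 times the median gene was lower in the nucleus as well, by between -0.35 and -0.19 log2 units.

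Clk3 kept its direction and call at each of the 4 times under all 10 alternatives run, with values between -0.73 and -1.96 at 30 min. Without the nuclear 30 min library that stood apart, its difference at 30 min was -0.90 ± 0.15 (limma adjusted p = 5.64e-04), and that of Clk4 was 1.03 ± 0.41 in place of 0.65 ± 0.40. Clk1 at 120 min also kept its call under all 10, with values from -2.89 to -0.80. The call of Clk4 at 120 min was lost without replicate 2 (limma adjusted p = 0.17), without replicate 3 (0.075) and after centring on the median gene (0.066). That of Clk1 at 240 min was lost in 5 of 10, among them each of the 3 fits without 1 replicate, with adjusted p between 0.060 and 0.084. Tra2b at 240 min lost its call only when scaled to mitochondrial mRNAs, at 0.22 ± 0.31.

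Counted by ranges rather than by the fit, Clk3 was lower in the nucleus with no overlap at all 4 times, Clk1 at 60, 120 and 240 min, Clk4 at 60 and 120 min, and Tra2b was higher at 120 and 240 min. Of all genes, the ranges did not overlap in 39.3% at 30 min, 55.8% at 60 min, 61.4% at 120 min and 64.1% at 240 min. The 4 genes gave 1 at 30 min, 3 at 60 min, 4 at 120 min and 3 at 240 min. Without the nuclear library that stood apart, a setting added after the data were seen, they gave 2 at 30 min, Clk3 lower and Clk4 higher in the nucleus, against 50.2% of all genes. By size of the difference, 7.35% of genes lay lower than Clk3 at 60 min, and 12.6% lay lower than Clk1 at 120 min.

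**Figure D4:**
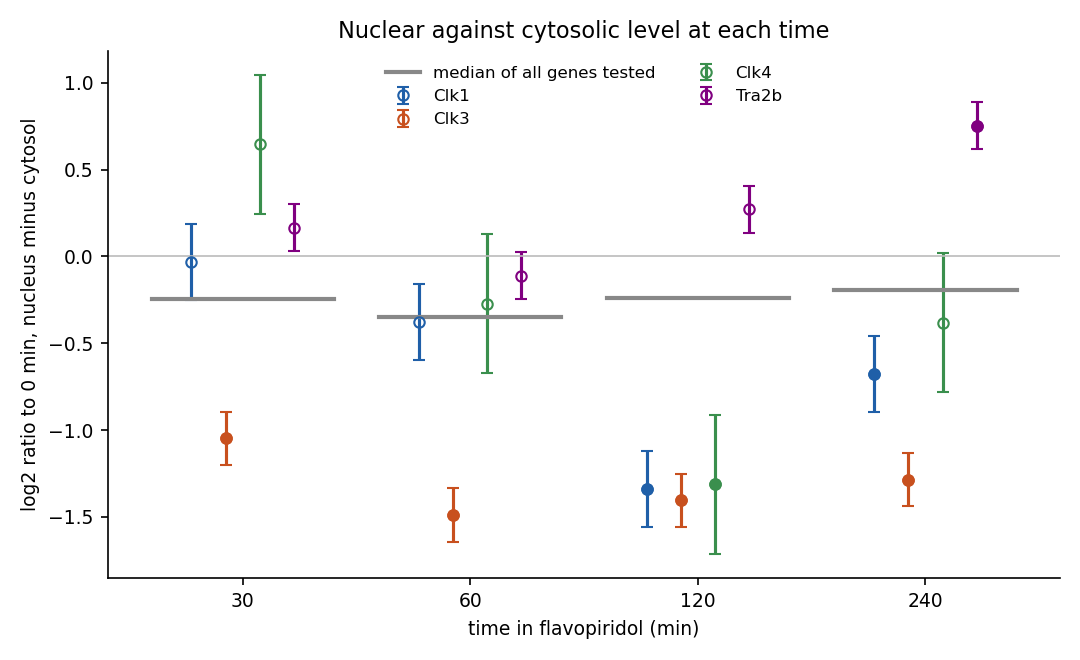
Difference of the log2 ratio to 0 min, nucleus minus cytosol, at 30, 60, 120 and 240 min, with 1 point per gene, bars of 1 SE from limma over 24 libraries and the median of all genes tested as a grey line. Filled points have an adjusted p under 0.05. Clk3 lies between -1.05 and -1.49 at all times, Clk1 and Clk4 reach -1.34 and -1.31 at 120 min, and Tra2b rises to 0.75 at 240 min. Changes of sign under other scalings are not drawn. Centring on the median gene turns Clk1 from below to above 0 at 30 and 60 min, Clk4 at 60 and 240 min and Tra2b at 60 min. Scaling to mitochondrial mRNAs turns Tra2b from above to below 0 at 30 and 120 min and Clk4 at 30 min.

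A single exponential fitted on the linear scale gave each gene a half-life in each fraction, with the SD over fits to the 3 replicate series. Per the study's methods, such a fit gives the aggregate turnover of a compartment and not the rate of a single step between compartments. The half-lives below are therefore not decay rates of nuclear or cytosolic RNA alone. In the nucleus the half-life was 34.6 ± 21.7 min for Clk4, 38.0 ± 11.8 min for Clk1, 77.0 ± 13.9 min for Clk3 and 335 ± 65 min for Tra2b. Clk4 and Clk1 did not differ beyond this spread, and Clk3 and Tra2b each lay above the gene before them by more than it. In the cytosol the order was Clk1 with 61.6 ± 3.1 min, Clk4 with 83.5 ± 25.7 min, Clk3 with 100.4 ± 5.3 min and Tra2b with 172 ± 44 min. Here Clk4 lay within its spread of both of its neighbours. Over all genes the median half-life was 176 min for nuclear and 213 min for cytosolic RNA, so nuclear Tra2b was above the median, and cytosolic Tra2b lay within its SD of the median. Total RNA gave 52.5 ± 7.2 min for Clk1, 44.6 ± 9.5 min for Clk4, 94.4 ± 11.3 min for Clk3 and 227 ± 23 min for Tra2b, against a median of 244 min. In the membrane fraction the half-lives were 58.0 ± 9.3 min for Clk1, 59.3 ± 15.5 min for Clk4, 75.2 ± 13.2 min for Clk3 and 158 ± 20 min for Tra2b. The level at 0 min was free in this fit: with it fixed at 1, the nuclear half-life was 41.1 min for Clk3, 48.4 min for Clk1, 62.7 min for Clk4 and 318 min for Tra2b. The order of the nuclear kinases thus depended on this setting, and Clk3 was then the shortest. With the same setting the cytosolic half-life was 64.5 min for Clk1, 65.3 min for Clk4, 168 min for Clk3 and 180 min for Tra2b, and that of Clk4 in total RNA was 88.1 min. No finite half-life of nuclear Tra2b was obtained after centring on the median gene or scaling to mitochondrial mRNAs.

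**Figure D5:**
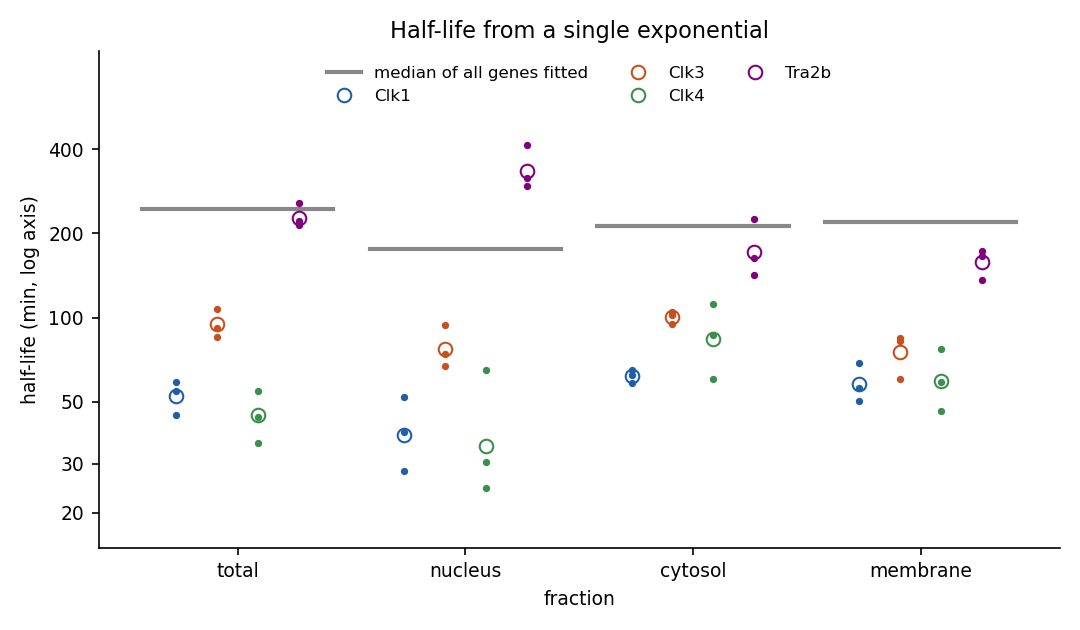
Half-life (min, log axis) of Clk1, Clk3, Clk4 and Tra2b in each fraction. Open circles are fits over 12 libraries, dots are fits to each of the 3 replicate series, and the grey line is the median of all genes fitted. Tra2b has 335 min in nuclear and 172 min in cytosolic RNA, whereas nuclear half-lives of the kinases lie between 34.6 and 77.0 min.

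The genes whose courses lay nearest to each of the 4 were found by the root mean square difference of the log2 ratio over all 48 libraries among 8598 genes, as a description without a test. Nearest to Clk1 were Sgo1, a protector of centromeric cohesion (0.37), Phf12 (0.40) and Stil, a centriole duplication factor (0.40), against a median of 2.10 over all genes. Nearest to Clk3 were Eme2, a nuclease subunit (0.24), Mettl3, the catalytic subunit of the N6-adenosine methyltransferase (0.24), and Ess2 (0.25). The median distance over all genes was 1.14 from Clk3, 1.82 from Clk4 and 0.73 from Tra2b. For Clk4 the nearest genes were Akap10, a kinase anchoring protein (0.50), Sall2, a zinc finger factor (0.59), and Ccdc51 (0.59). For Tra2b they were Isg20l2, an exonuclease (0.15), Tmpo, a nuclear lamina protein (0.17), and Dck, deoxycytidine kinase (0.17). Among the 4 genes themselves, Clk1 and Clk4 were closest, at 0.71, and 1.66% of the 10694 genes compared for these pairs lay closer to Clk1 than Clk4 did. Clk1 and Tra2b were farthest apart, at 2.07, and 47.1% of these genes lay closer to Clk1 than Tra2b did.

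Other genes of the pathway were taken from lists of other SR protein and CMGC kinases and phosphatases, SR proteins, other RS-domain factors and Tra2 partners, and other genes known for detained introns. Among the kinases and phosphatases, 12 of 15 genes could be tested for the slope difference, 0 were lower and 1 was higher in the nucleus by limma (0 and 5 at an unadjusted p under 0.05), against 8.30% lower and 12.3% higher over all genes, with a median of 0.05 against 0.03 over all genes. The gene that was higher was Hipk3, a homeodomain-interacting kinase, at 0.31 ± 0.06 (limma adjusted p = 0.0020). Dyrk3, a kinase that dissolves nuclear speckles, had 0.34 ± 0.14 (limma adjusted p = 0.088), and the lowest values were those of the splicing kinase Prpf4b with -0.12 ± 0.08 and of the SR protein kinase Srpk1 with -0.04 ± 0.05. Like Clk1 and Clk4, Dyrk3 had steep slopes, of -1.15 ± 0.09 in the nucleus and -1.49 ± 0.10 in the cytosol. At 120 min 4 of the 12 were lower and 3 higher in the nucleus by limma, with the same counts at 240 min. Over all 11232 genes, 33.4% were lower and 1673 genes higher at 120 min, and 34.8% lower and 21.6% higher at 240 min.

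Of the SR proteins, the substrates of the Clk kinases, all 11 could be tested, 1 had a lower and 1 a higher slope in the nucleus (20.6% of all genes in either direction), and the median was -0.05. Srsf5 was lower with -0.60 ± 0.15 (limma adjusted p = 0.0062) and Srsf3 higher with 0.16 ± 0.06 (limma adjusted p = 0.043), while Srsf11 had -0.24 ± 0.14 and Srsf1 0.06 ± 0.07. At 120 min 7 of 11 SR protein genes were lower in the nucleus and 0 higher by limma (8 and 0 unadjusted), against 33.4% of all genes lower, with a median of -0.97 log2 units against -0.24 over all genes. At 240 min 6 were lower and 0 higher, against 34.8% and 21.6% of all genes. The other RS-domain factors and Tra2 partners gave 0 lower and 4 higher slopes by limma out of 13 tested of 19 (0 and 7 unadjusted), against 12.3% of all genes higher, with a median of 0.17. The 4 were Son, a speckle scaffold, with 0.33 ± 0.05 (limma adjusted p = 1.56e-04), Sfswap with 0.39 ± 0.09 (limma adjusted p = 0.0032), and Pnn and Khdrbs1, which fell outside the naming rule and are given because they complete the count, with 0.29 ± 0.06 and 0.18 ± 0.06. Srrm2 and Acin1 had the lowest values of this list, -0.13 ± 0.27 and -0.10 ± 0.11. Like Tra2b, Son fell more slowly in the nucleus (-0.33 ± 0.04) than in the cytosol (-0.66 ± 0.03). Of the 13 RS-domain factors and Tra2 partners, 3 were lower and 4 higher in the nucleus at 120 min by limma. Over all 11232 genes, 33.4% were lower and 1673 genes higher at that time. At 240 min 2 were lower and 9 higher, as Tra2b was, against 34.8% and 21.6% of all genes.

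Of the other detained-intron genes all 9 could be tested, 2 of which are also SR proteins. There 3 had a lower and 1 a higher nuclear slope by limma (4 and 2 unadjusted), against 8.30% lower and 12.3% higher over all genes, with a median of -0.12. The lower genes were Srsf5, the export receptor Nxf1 with -0.53 ± 0.10 and the cyclin Ccnl2 with -0.21 ± 0.07, the last 2 named to complete the count. The higher gene was Ogt, the O-GlcNAc transferase, with 0.48 ± 0.10 (limma adjusted p = 0.0019). Mat2a, which makes S-adenosylmethionine, had the lowest value, -0.93 ± 0.43 (limma adjusted p = 0.13). At 120 min 5 of 9 were lower in the nucleus and 0 higher by limma (5 and 0 unadjusted), against 33.4% of all genes lower, with a median of -0.92. Srsf5 and Srsf7 were among these 5 and are already counted with the SR proteins, and the others were Nxf1, Snrnp70 and Mat2a. At 240 min 5 were lower and 2 higher, against 34.8% and 21.6% of all genes.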

How the data were processed

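Each of the 48 libraries had 1 deposited table of gene identifiers and values. Per the labels, the authors aligned paired reads with STAR 2.7.6 to mm10 and estimated expression with RSEM 1.3.3, scaled the libraries on genes of long known half-life and divided each value by that of 0 min, so the deposited values are a ratio to 0 min. Genes at 0 were not listed. Of 23862 identifiers, 23786 matched a symbol in GENCODE. The 6 genes and the lists were chosen with earlier results of these data known.

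Values were log2 transformed without a pseudocount. With limma 3.58.1 (trend on, R 4.3.3), slopes on time, their difference between nucleus and cytosol, the difference at each time and the mean against 0 were fitted over genes listed in all libraries of a fit, with Benjamini-Hochberg adjustment and a two-sided threshold of 0.05. SE is that of limma. A single exponential was fitted by least squares for half-lives (Python 3.11.15). The scripts were tested on simulated data: in the slope difference, 60% of genes changed by 0.4 and 88% of those changed by 0.75 log2 units per h were recovered among 11232. Named from the lists were the 2 lowest and 2 highest slope differences (1 such gene is not reported here), and for each of the 4 genes the 3 nearest genes. Alternatives were a pseudocount of 0.1, no filter, median and mitochondrial scaling, leaving out replicates or 1 library, a replicate block, other times and limma without trend. Replicates were independently passaged cultures.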

Additional observations from a re-analysis of the deposited data

Results flagged for a closer look

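Several courses differed between nucleus and cytosol by a test of the difference itself (limma, adjusted over 11232 genes), and are listed here for that reason. The slope of Tra2b was higher in the nucleus by 0.21 log2 units per h, and its level at 240 min by 0.75 log2 units. Clk3 was lower in the nucleus at every time, by -1.05 at 30 min, -1.49 at 60 min, -1.40 at 120 min and -1.29 at 240 min. Clk1 was lower by -1.34 at 120 min and -0.68 at 240 min, and Clk4 by -1.31 at 120 min. The values at single times rest on the 0 min level of each fraction, whose part in them was not tested. For Clk3, the overlapping gene Edc3 on the opposite strand was lower in the nucleus too, with a mean of 0.348 against 0.546 in the cytosol at 120 min, and its part was not tested. Groups of 3 were not tested for outlying libraries.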

How the results depend on the processing

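The falls of Clk1, Clk3 and Clk4 with time, and the lower nuclear level of Clk3 at each time and of Clk1 at 120 min, kept direction and call under every alternative run. The number of the 4 genes with a slope difference was 1, against 20.6% of all genes. It was 0 when scaled to mitochondrial mRNAs, where 0.07% of all genes were called. With 1 replicate left out it was between 0 and 1, against 4.84% to 11.1% of all genes. Over 30, 60 and 120 min it was 2 (Clk1 and Clk4 in place of Tra2b), against 8.29%. The number that differed at 30 min was 3 with libraries centred on their median gene and 3 with mitochondrial scaling, against 1 in the main fit (30.2% of all genes). The shares of all genes at 30 min under these alternatives are not reported here, so the rise cannot be set against them. Combinations of gene and time below 0 min fell to 9 in nuclear, 7 in cytosolic and 7 in total RNA after centring, which removes the fall of the median gene by construction (the nuclear median gene lay at -1.57 log2 units at 240 min), and to 7 in the cytosol with mitochondrial scaling. The shares of all genes called under these settings and the membrane counts are not reported here, so these drops cannot be set against them. Centred values of nuclear Tra2b were 0.78 at 120 min and 0.84 at 240 min.

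Directions turned as follows, and the cause was not tested. With centring, the nuclear slope of Tra2b was 0.14, the slope difference of Clk3 0.018 and that of Srpk1 0.0035, and the nucleus minus cytosol difference was 0.29 for Clk1 at 30 min, 0.14 for Clk1, 0.24 for Clk4 and 0.40 for Tra2b at 60 min, and 0.15 for Clk4 at 240 min. With mitochondrial scaling, the nuclear slope of Tra2b was 0.024 and the slope difference of Clk3 0.011, and the differences were -0.27 for Clk4 and -0.75 for Tra2b at 30 min and -1.28 for Tra2b at 120 min. With a pseudocount of 0.1 the slope difference of Clk3 was 0.094. Over 30, 60 and 120 min the slope difference was -0.36 for Srsf1 and -0.11 for Ogt. With 1 replicate left out at a time, it ranged from -0.071 to 0.026 for Clk3 (above 0 without replicate 3), from -0.39 to 0.12 for Srrm2 and from -0.27 to 0.021 for Acin1 (both above 0 without replicate 2). The difference at one time then ranged from -0.25 to 0.15 for Clk1 and from -0.0050 to 0.39 for Tra2b at 30 min, and from -0.94 to 0.21 for Clk4 at 240 min, each turning without replicate 1. Leaving out only the nuclear 30 min library that stood apart gave 0.16 for Clk1 at 30 min. Of the half-lives under the alternatives, 89 stayed within the SD of the replicate series and 37 moved beyond it. That of nuclear Tra2b gave no value under centring or mitochondrial scaling.

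Same-numbered nuclear and cytosolic libraries of a time did not deviate together (correlations from -0.096 to 0.063 over 12 pairs and 10694 genes, 6 of 12 best with their own number), so the numbers were not taken as pairs. With a replicate block, the slope difference of Tra2b stayed at 0.21 (limma adjusted p = 0.012) and 1 of the 4 genes was called. Of the results named, Srsf3 lost its call under the block (limma adjusted p = 0.056), while Dyrk3 and Mat2a gained one with each combination of time and replicate number as the block (limma adjusted p = 0.0029 and 0.034).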
